A study of Mus musculus with 8 samples.

Results

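Genes of the interleukin 10 (IL-10) and interleukin 4 and 13 (IL-4, IL-13) axis were followed in mouse macrophages before and after lipopolysaccharide (LPS). They are the cytokine gene Il10 and the receptor chain genes Il10ra, Il10rb, Il4ra, Il13ra1 and Il2rg, taken by symbol from a list, 6 of the 43346 genes in the table, and all 6 passed the filter on low counts that left 12461 genes for testing. Polyadenylated RNA came from 3 cell types, unstimulated (0 h, called rest here) and 3 h after LPS, a bacterial outer membrane lipid that is sensed through TLR4. Bone marrow-derived macrophages (BMDM), grown in L929-conditioned medium, gave 2 libraries at rest and 2 after LPS. The cells labelled hMPDM, an abbreviation that the labels do not spell out, and the macrophage-like tumour line RAW 264.7 (RAW), grown in DMEM with serum, gave 1 library at rest and 1 after LPS each. For mouse strain, age and LPS dose the labels used here state nothing. Whether the 2 BMDM libraries of a state are separate cultures is also unstated, and the p-values then measure a spread between libraries that may be technical.

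IL-10 is a cytokine that restrains macrophage activation. It binds the IL-10 receptor, in which the ligand-binding chain Il10ra pairs with Il10rb, a chain shared with the receptors of IL-22 and the lambda interferons, and signals through JAK1, TYK2 and STAT3. IL-4 and IL-13 drive the alternative activation of macrophages through Il4ra, which pairs with the common gamma chain Il2rg in the type I receptor (IL-4) or with Il13ra1 in the type II receptor (IL-4 and IL-13), and signals through STAT6. LPS is known to induce Il10 in macrophages, and the cytokine acts back on the cells that release it.

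The 3 chains of the IL-4 and IL-13 receptors had unlike levels across the libraries, so the 250 bases before their RefSeq start sites are shown side by side (GRCm38.p6, 5′ to 3′ on the strand of the gene). Il4ra lies at chr7:125552021-125552270 on the plus strand, Il13ra1 at chrX:36111858-36112107 on the plus strand and Il2rg at chrX:101268256-101268505 on the minus strand. Capitals mark matches, on either strand, to GGGNNNNNCC (the NF-kB type), CCGCCC (the SP1 type) and ATGNAAAT (the octamer type). Searches for TTCNNNGAA and TTCNNNNGAA (STAT types), TGANTCA (AP-1 type), GAAANNGAAA (interferon response type) and GAGGAA (PU.1 type) found no match in these windows.
Il4ra: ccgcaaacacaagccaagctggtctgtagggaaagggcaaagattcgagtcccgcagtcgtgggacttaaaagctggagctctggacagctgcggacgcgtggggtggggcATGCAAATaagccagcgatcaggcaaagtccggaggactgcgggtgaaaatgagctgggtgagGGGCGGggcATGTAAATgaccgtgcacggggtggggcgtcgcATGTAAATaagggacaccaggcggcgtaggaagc
Il13ra1: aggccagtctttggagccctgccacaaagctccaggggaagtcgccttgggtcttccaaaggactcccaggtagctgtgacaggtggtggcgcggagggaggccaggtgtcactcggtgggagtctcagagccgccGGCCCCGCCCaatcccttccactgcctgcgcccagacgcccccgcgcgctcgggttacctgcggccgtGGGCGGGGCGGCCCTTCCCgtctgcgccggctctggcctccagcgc
Il2rg: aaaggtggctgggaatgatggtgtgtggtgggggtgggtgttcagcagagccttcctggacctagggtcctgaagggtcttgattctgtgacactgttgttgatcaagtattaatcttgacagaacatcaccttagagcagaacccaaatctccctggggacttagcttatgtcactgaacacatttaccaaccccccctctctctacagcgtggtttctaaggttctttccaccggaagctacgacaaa

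The Il4ra window held the octamer-type letters at 3 places, beginning 139, 67 and 34 bases before the start, and 1 SP1-type match. This motif was chosen after the sequence had been seen, and 5.03% of the 32851 promoters in the RefSeq table hold it in their 250 bases. The Il13ra1 window had the highest GC content of the 3, 70.8% against 59.6% for Il4ra and 49.2% for Il2rg, and a median of 52.4% over all promoters. It held overlapping NF-kB-type and SP1-type letters in 2 blocks, and 45.8% and 32.7% of all promoters hold those motifs. The Il2rg window held none of the motifs searched. It had 3 CG dinucleotides, against 17 for Il4ra, 21 for Il13ra1 and a median of 6 over all promoters. A match describes letters only and is not evidence of binding. The table held an entry for 3 of the 6 genes, and no entry for Il10, Il10ra or Il10rb was used.

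Library totals ran from 3116434 counts (RAW at rest) to 19307312 (BMDM at rest, replicate 2), and the RAW libraries and the hMPDM LPS library (5510319) were the shallowest. All 7 macrophage markers were counted in every library, with a summed level of 14261 to 16662 CPM (counts per 1000000 counts of a library, scaled between libraries by TMM). Lyz2 gave most of that sum, which hides differences in single markers. Resting RAW was below resting BMDM in Adgre1 (260 against 625 CPM), Cd68 (1494 against 2778), Itgam (349 against 770) and Mertk (21.5 against 107). It was above resting BMDM in Lyz2, Csf1r and Fcgr1. Of 7 markers of T and NK cells no more than 1 had a read in any library, with a summed level of 0 to 0.0791 CPM, and Cd3d, Cd3e and Cd3g were at 0 throughout. Summed levels were 0 to 0.240 CPM for 6 mast cell and basophil markers (Fcer1a, Mcpt4 and Cma1 at 0 throughout), 0.0601 to 3.02 CPM for 6 fibroblast markers and 3.92 to 92.0 CPM for 6 neutrophil markers, highest in BMDM after LPS. The hMPDM LPS library, and no other, was checked for reads of 16 genes near absent from unstimulated hMPDM. These were picked by a resting hMPDM level of at most 5% of that in BMDM. Their pooled resting level, 1.35% of the level in BMDM at rest, thus follows in part from the rule. In the hMPDM LPS library they stood at 10.8% of the level in BMDM after LPS. That share of the BMDM LPS level would be 20.1% of its Il10 level, 14.7% of its Il10ra level and 8.13% to 9.34% of the levels of the other 4 genes. Taking it out ended none of the calls for the 6 genes reported here, and its part in the untested hMPDM values was not tested further.

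In BMDM, Il10 rose with LPS from a very low level. Il10 (ENSMUSG00000016529.5, chromosome 1, 131019845 to 131024974, mm10) stood at 0.658 and 0.436 CPM in the resting BMDM libraries, on 11 and 9 counts, with 4.08 and 4.03 CPM in the LPS libraries, on 27 and 51 counts. The LPS libraries lay well above the resting ones, with no overlap. The rise was 2.89 on the log2 scale (SE 0.324, adjusted p = 4.93e-09 by edgeR's quasi-likelihood test, 2 libraries against 2), a 7.42-fold change, and the pooled counts gave a ratio of 7.57 with a 95% counting interval of 4.58 to 13.1. In hMPDM, Il10 was at 0.661 CPM (11 counts) before and 2.18 CPM (10 counts) after stimulation, a ratio of 3.30 (1.26 to 8.56, counting error only) that has no replicate check. In RAW there was 1 count in each state, 0.262 and 0.214 CPM. The RAW values were the lowest, but 1 count does not place them below the resting BMDM and hMPDM libraries. The resting ratio of BMDM to RAW was 2.05, with a counting interval of 0.327 to 84.8. Without RAW, the order of levels was BMDM after LPS, hMPDM after LPS, hMPDM at rest and BMDM at rest. In that order the difference between hMPDM and BMDM did not pass the test after LPS (log2 -0.89, SE 0.459, adjusted p = 0.172) or at rest (0.30, SE 0.547, adjusted p = 0.715). After LPS the ratio of hMPDM to BMDM was 0.539, with a counting interval of 0.249 to 1.04 on 10 hMPDM counts. The test takes its spread from BMDM alone, so the lack of a call is not evidence of equal levels.

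The ligand-binding chain of the IL-10 receptor rose with its ligand, while the shared chain fell slightly. Il10ra (ENSMUSG00000032089.12, chromosome 9, 45253837 to 45269149, mm10) was at 101 and 95.3 CPM in BMDM at rest and reached 281 and 278 CPM with LPS, with no overlap between states. It rose by 1.51 on the log2 scale (SE 0.0431, adjusted p = 2.78e-23, edgeR), or 2.85-fold. In hMPDM it stood at 97.5 and 205 CPM, a ratio of 2.10 (1.94 to 2.28), and in RAW at 34.8 and 56.7 CPM, a ratio of 1.63 (1.32 to 2.02). Both LPS libraries of these cell types were thus above their resting library by more than counting error. From highest to lowest, the levels were BMDM after LPS, hMPDM after LPS, BMDM at rest, hMPDM at rest, RAW after LPS and RAW at rest. Within that order the difference between hMPDM and BMDM at rest did not pass the test (log2 -0.01, SE 0.0562, adjusted p = 0.913).

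Il10rb (ENSMUSG00000022969.9, chromosome 16, 91406164 to 91425834, mm10) was at 226 and 228 CPM in resting BMDM and at 191 and 182 CPM in the LPS libraries. The LPS libraries were the lower ones, with no overlap, and the gene fell by 0.29 on the log2 scale (SE 0.0411, adjusted p = 4.1e-07, edgeR). Setting the coefficient of variation to 10% ended this call (adjusted p = 0.112). The LPS library was also the lower one in hMPDM (259 and 220 CPM, ratio 0.847, 0.790 to 0.907) and in RAW (155 and 126 CPM, ratio 0.814, 0.725 to 0.914). Il10rb therefore varied least of the 6 genes, between 126 CPM in RAW after LPS and 259 CPM in hMPDM at rest. Its annotated span overlaps Gm21970 on the same strand, which was listed at 0 in all 8 libraries, and the rule for reads shared by both genes is unstated.

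Il4ra, the chain common to both IL-4 receptors, changed little in BMDM and set the cell types apart. Il4ra (ENSMUSG00000030748.8, chromosome 7, 125552282 to 125579472, mm10) was at 235 and 240 CPM in resting BMDM and at 253 and 248 CPM in the LPS libraries. The difference did not pass the test (log2 0.07, SE 0.0391, adjusted p = 0.109, edgeR), and scaled by library size alone the same gene was lower after LPS (log2 -0.29, adjusted p = 2.8e-08). In hMPDM the level was higher than in any BMDM library, 363 CPM at rest and 301 CPM after LPS (ratio 0.828, 0.780 to 0.878). In RAW it was 22.0 CPM before and 26.8 CPM after LPS, with a ratio of 1.22 whose interval of 0.916 to 1.62 includes no change. From hMPDM at rest to RAW at rest the levels thus spanned more than an order of magnitude. An antisense gene, Gm44876, is annotated across Il4ra in GENCODE. The libraries came from a stranded kit, but whether counting used the strand is unstated.

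Il13ra1, which completes the type II receptor, rose in BMDM from a low level. Il13ra1 (ENSMUSG00000017057.9, chromosome X, 36112110 to 36171259, mm10) went from 10.8 and 10.6 CPM in BMDM at rest to 34.0 and 31.6 CPM after LPS, a rise of 1.60 on the log2 scale (SE 0.0919, adjusted p = 1.4e-15, edgeR), or 3.03-fold. In hMPDM it went from 8.89 to 38.0 CPM, a ratio of 4.27 (3.41 to 5.35). RAW already stood at 33.0 CPM at rest and at 39.8 CPM with LPS, a ratio of 1.21 (0.958 to 1.53). All 4 LPS libraries and the resting RAW library thus lay between 31.6 and 39.8 CPM, and only the resting BMDM and hMPDM libraries were lower, at 8.89 to 10.8 CPM.

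Il2rg, the common gamma chain of the type I receptor, rose in BMDM and was higher after LPS in the other cell types. Il2rg (ENSMUSG00000031304.14, chromosome X, 101264378 to 101268255, mm10) was at 76.3 and 75.6 CPM in resting BMDM and at 165 and 157 CPM in the LPS libraries. It rose by 1.08 on the log2 scale (SE 0.0474, adjusted p = 1.78e-18, edgeR), or 2.11-fold. In hMPDM it was at 90.6 and 214 CPM, a ratio of 2.36 (2.18 to 2.56), and in RAW at 73.5 and 96.3 CPM, a ratio of 1.31 (1.13 to 1.53). The 4 resting libraries lay within 73.5 to 90.6 CPM, and every LPS library lay above all of them. The difference between the neighbours RAW and BMDM at rest did not pass the test (log2 -0.05, SE 0.0935, adjusted p = 0.695). Gm20489 overlaps Il2rg on the same strand and was listed at 0 in all 8 libraries.

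**Figure D1:**
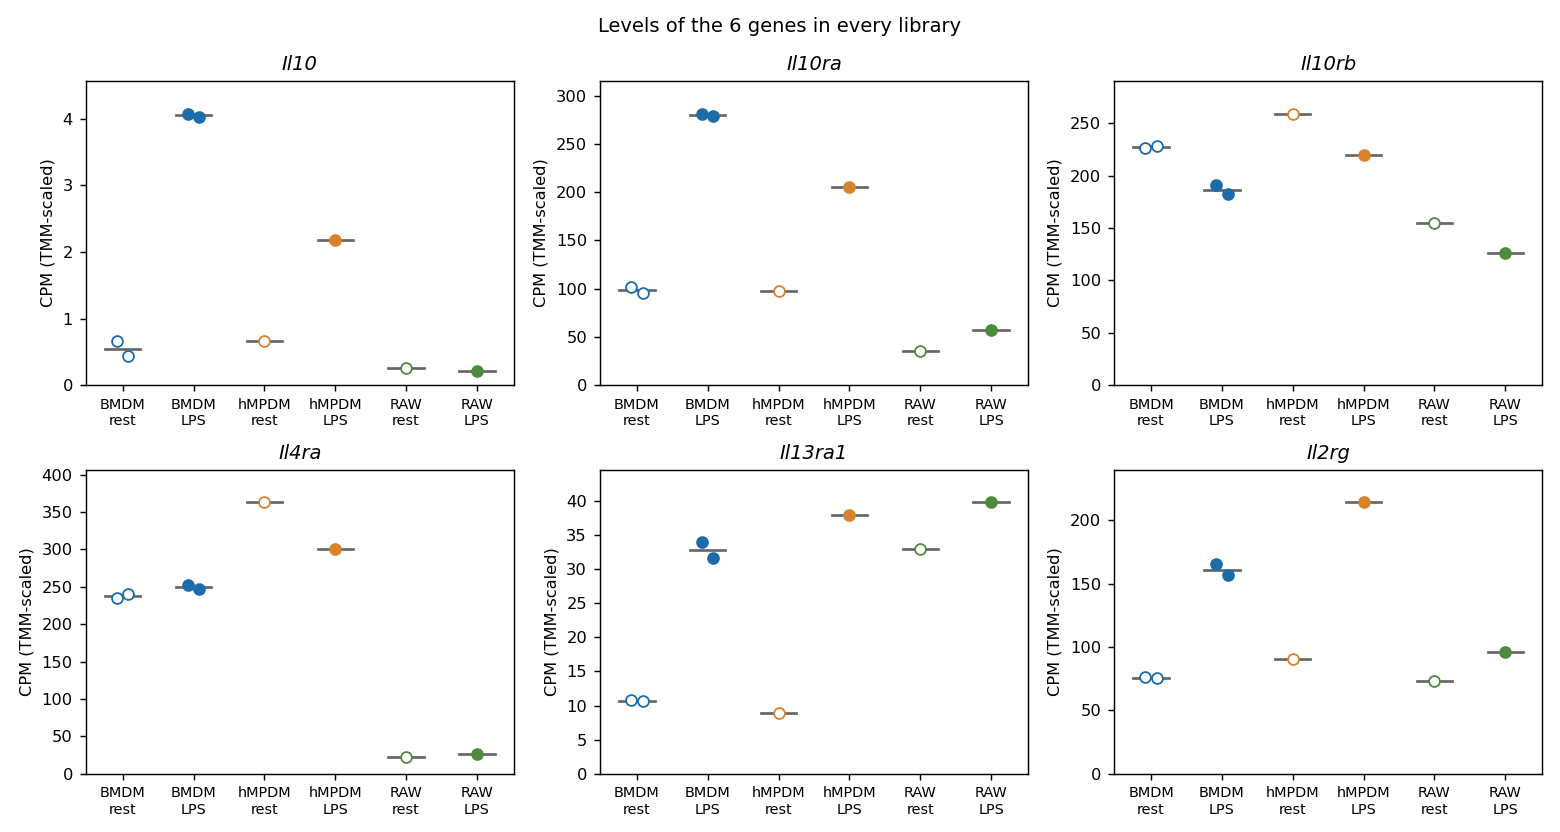
CPM (vertical axis, TMM-scaled, linear from 0) of each gene in the 8 libraries, with open points at rest, filled points after LPS and a line at the group mean. Il4ra is at 22.0 to 26.8 CPM in RAW against 235 CPM or more in the other libraries, and Il13ra1 in resting RAW (33.0 CPM) is at the level that BMDM reaches after LPS.

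Counted together, 4 of the 6 genes rose and 1 fell in BMDM, where 62.7% of all genes tested were called, 31.7% higher and 31.1% lower. Their median log2 change was 1.29, against -0.02 over all genes. With scaling by library size alone, which shifts the median of all genes by -0.36, 4 rose and 2 fell. The share of all genes called under that scaling is not given here. In an additive fit of cell type and LPS over all 8 libraries, 4 rose and 1 fell as well, with 49.1% of all genes called, 25% higher and 24.2% lower. The LPS coefficient of this fit, called the common response, was 2.53 for Il10 (SE 0.317), 1.23 for Il10ra (SE 0.136), 1.42 for Il13ra1 (SE 0.256), 0.97 for Il2rg (SE 0.133) and -0.28 for Il10rb (SE 0.0520). Il4ra did not pass (0.02, adjusted p = 0.870). BMDM gives 4 of the 8 libraries and weighs most in this fit. The fit takes 1 LPS change for all cell types, although the responses of Il10ra, Il13ra1 and Il2rg differed between RAW and BMDM, as given below. For these genes the coefficient is an average and not a change shared by all cell types. In hMPDM, 4 of the 6 genes were at least 2-fold higher in the LPS library, as were 11.2% of all genes, and 0 were at least 2-fold lower (9.76% of all genes). Scaled by library size alone, which shifts the hMPDM median of all genes by -0.37, 2 of the 6 were at least 2-fold higher. The matching share of all genes is not given here. In RAW, 0 of the 6 were 2-fold higher or lower, against 5.38% and 4.92% of all genes.

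The test of the difference between LPS responses found smaller responses in RAW for 3 genes, the call rate over all genes being 22.7% (10% larger and 12.7% smaller in RAW). Il13ra1 differed most, by -1.33 on the log2 scale (SE 0.192, adjusted p = 2.79e-06, edgeR), with resting RAW at the level of stimulated BMDM. Il10ra differed by -0.81 (SE 0.165, adjusted p = 0.000378) and Il2rg by -0.69 (SE 0.124, adjusted p = 7.17e-05). With a coefficient of variation of 10% the calls for Il10ra and Il2rg ended (adjusted p = 0.0631 and 0.0975) and that for Il13ra1 held (adjusted p = 0.00653). For Il10 the difference was -3.17 with an SE of 2.23 (adjusted p = 0.366), so that 1 count in each RAW library leaves its response undetermined. Il4ra (0.21, SE 0.201, adjusted p = 0.533) and Il10rb (-0.01, SE 0.0997, adjusted p = 1) did not pass. Scaled by library size alone, Il10rb had a larger response in RAW (0.26, adjusted p = 0.0447), so that 1 response was larger and 3 were smaller. That scaling shifts the median difference over all genes by 0.27, and the share of all genes called under it is not given here. Between hMPDM and BMDM 2 genes had a smaller response in hMPDM, with 7.86% of all genes called (3.96% larger and 3.89% smaller in hMPDM): Il10ra by -0.44 (SE 0.0837, adjusted p = 0.000567) and Il4ra by -0.34 (SE 0.0705, adjusted p = 0.00124). Both calls ended with the DESeq2 test (adjusted p = 0.197 and 0.238) and with a coefficient of variation of 10% (adjusted p = 1 for both). Il13ra1 had a larger value in hMPDM that did not pass (0.49, SE 0.184, adjusted p = 0.117).

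**Figure D2:**
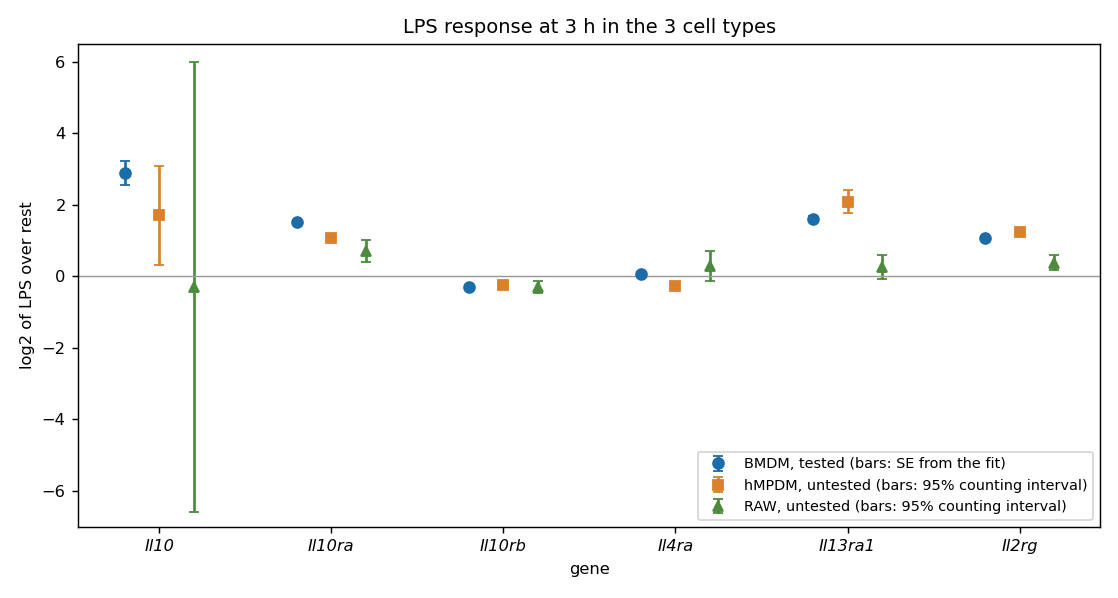
Log2 of the level after LPS over the level at rest (vertical axis) for each gene, with BMDM from the tested fit (bars are SE from the fit) and hMPDM and RAW as untested ratios of 1 library to 1 (bars are 95% counting intervals). The intervals of RAW Il10, Il4ra and Il13ra1 include 0, and Il10rb lies below 0 in all 3 cell types.

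Between cell types, RAW differed from BMDM at rest in 4 of the 6 genes, 1 higher and 3 lower, with 58.4% of all genes called (27.1% higher and 31.3% lower). Il4ra was the gene furthest apart (log2 -3.43, SE 0.109, adjusted p = 2.36e-21, edgeR), and the counts of BMDM at rest were 10.8 times those of RAW after scaling (8.73 to 13.6, counting error). Il10ra differed by -1.50 (SE 0.113, adjusted p = 2.08e-12) and Il10rb by -0.56 (SE 0.0676, adjusted p = 3.69e-08). Il13ra1 was higher in RAW by 1.62 (SE 0.159, adjusted p = 5.48e-10), or 3.08-fold. Il10 did not pass at rest (log2 -1.0, SE 1.29, adjusted p = 0.524).

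After LPS all 6 genes differed between RAW and BMDM, 5 lower and 1 higher, with 66.2% of all genes called (29.8% higher and 36.4% lower). Il10 had 1 count in RAW and 78 over the BMDM libraries, so that its scaled level in BMDM was 18.9 times that in RAW with a wide counting interval of 3.30 to 757 (adjusted p = 6.31e-05). Il4ra differed by -3.22 (SE 0.0976, adjusted p = 3.08e-22), Il10ra by -2.30 (SE 0.0824, adjusted p = 1.92e-20) and Il2rg by -0.74 (SE 0.0764, adjusted p = 1.09e-09). Il10rb differed by -0.56 (SE 0.0703, adjusted p = 3.95e-08), a call that ended with scaling by library size alone (-0.10, adjusted p = 0.23). The higher gene, Il13ra1 (0.29, SE 0.122, adjusted p = 0.0369), lost its call under 5 of 12 alternatives, among them the fit without BMDM LPS replicate 2 (adjusted p = 0.175).

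Between hMPDM and BMDM at rest 3 of the 6 genes were higher in hMPDM and 0 were lower, with 38.2% of all genes called (19% higher and 19.2% lower): Il4ra by 0.61 (SE 0.0429, adjusted p = 7.77e-13, edgeR), Il2rg by 0.26 (SE 0.0577, adjusted p = 0.000656) and Il10rb by 0.19 (SE 0.0450, adjusted p = 0.00107). The call for Il4ra, a 1.53-fold difference, held under all 13 alternatives run for it, and those for Il2rg and Il10rb ended with DESeq2 (adjusted p = 0.234 and 0.257). After LPS 3 were higher and 1 lower, with 25% of all genes called (12.5% each way). Il10ra was lower in hMPDM (-0.45, SE 0.0616, adjusted p = 1.12e-06), and Il2rg (0.42, SE 0.0635, adjusted p = 5.74e-06), Il4ra (0.27, SE 0.0561, adjusted p = 0.000471) and Il10rb (0.24, SE 0.0621, adjusted p = 0.00389) were higher. All 4 calls ended with a coefficient of variation of 10% (adjusted p of 0.123 for Il10ra, 0.161 for Il2rg, 0.476 for Il4ra and 0.564 for Il10rb).

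**Figure D3:**
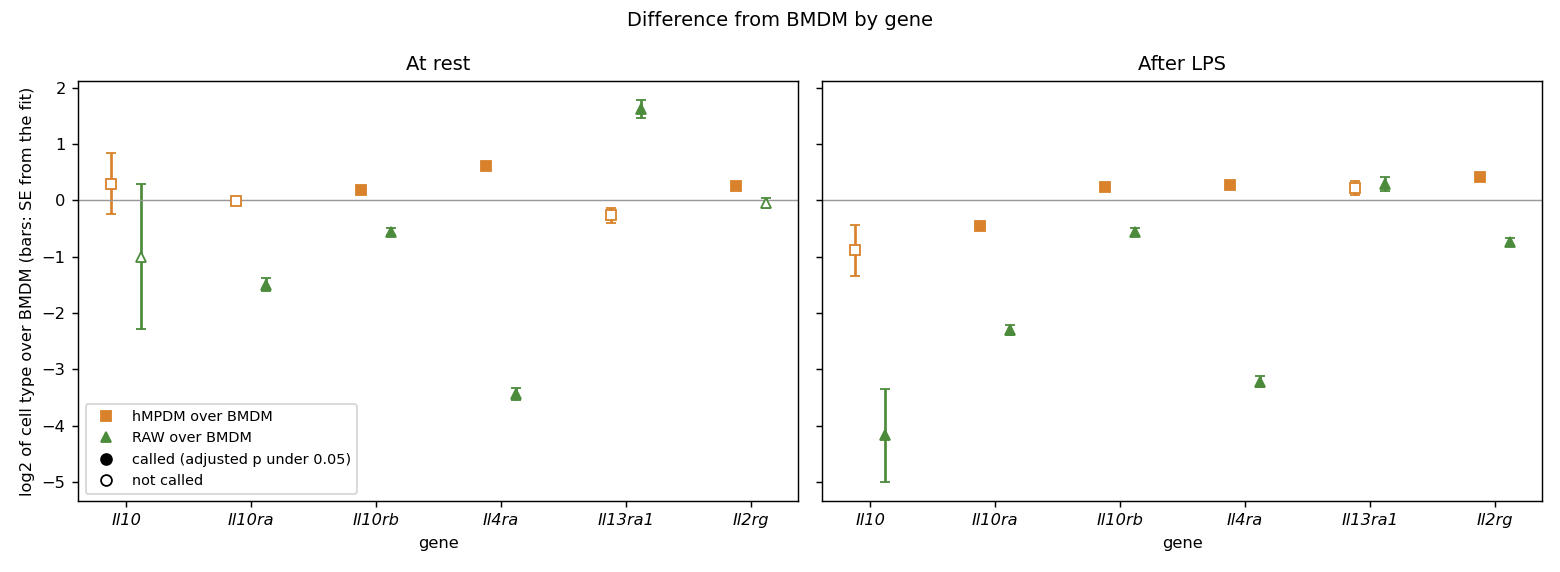
Log2 difference of hMPDM and RAW from BMDM (vertical axis, bars are SE from the fit) at rest and after LPS, with filled symbols for calls at an adjusted p under 0.05. In RAW, Il4ra lies at -3.43 at rest and -3.22 after LPS, whereas Il13ra1 moves from 1.62 to 0.29.

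Levels of different chains were compared per length, as RPKM (the scaled CPM divided by the length of the gene model in kilobases). In BMDM at rest Il10rb was the most abundant chain, at 59.7 ± 0.333 RPKM (SD, n = 2), ahead of Il4ra at 46.6 ± 0.727, Il2rg at 31.8 ± 0.207, Il10ra at 28.1 ± 1.23 and Il13ra1 at 2.89 ± 0.0400. After LPS the order in BMDM was led by Il10ra at 80.0 ± 0.567 RPKM and Il2rg at 67.5 ± 2.37 (SD, n = 2), with Il4ra (49.1 ± 0.737) and Il10rb (49.0 ± 1.59) within their spread of each other. The ratio of Il10ra to Il10rb within a BMDM library was 0.471 ± 0.0232 at rest and 1.63 ± 0.0413 after LPS (SD, n = 2). It was 0.409 and 1.02 in hMPDM and 0.245 and 0.491 in RAW, higher after LPS in every cell type, and the RAW LPS library stood near the resting BMDM libraries. Il10 itself was at 3.10 ± 0.0262 RPKM (SD, n = 2) in BMDM after LPS.

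The partners of Il4ra were far apart in level. Il2rg stood at 11.0 ± 0.0809 times Il13ra1 in BMDM at rest and 7.64 ± 0.123 times after LPS (SD, n = 2), at 15.8 and 8.78 times in hMPDM and at 3.47 and 3.76 times in RAW. The ratio was thus lower after LPS in BMDM and hMPDM, and lowest in both RAW libraries. Il4ra exceeded Il13ra1 in BMDM 16.2 ± 0.476 times at rest and 5.56 ± 0.202 times after LPS (SD, n = 2). In RAW it was the scarcer of that pair, at 0.486 and 0.490 times Il13ra1. These ratios do not depend on the scaling between libraries, which cancels within a library, but they do depend on the gene model lengths.

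**Figure D4:**
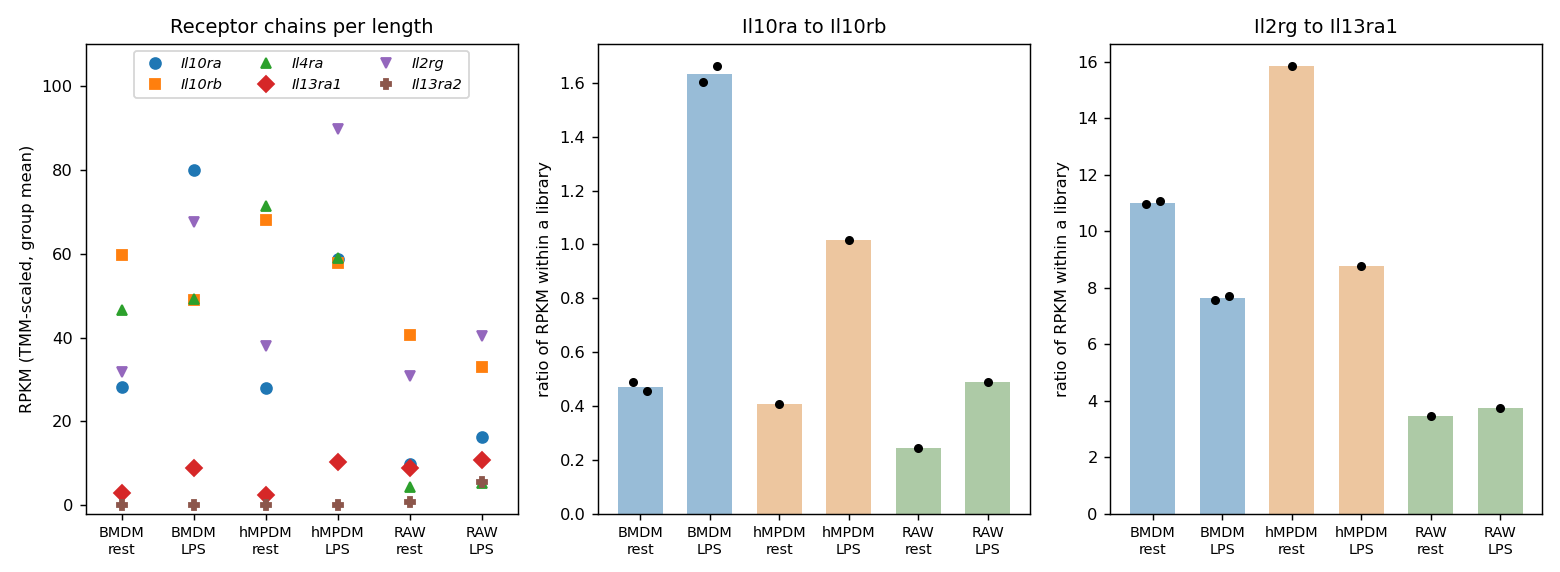
RPKM of 6 receptor chains as group means (left) and the ratios of Il10ra to Il10rb and of Il2rg to Il13ra1 within each library (bars from 0 are group means, points are libraries). The Il10ra to Il10rb ratio passes 1 after LPS in BMDM (1.63) and hMPDM (1.02), while RAW stays at 0.491.

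A further receptor gene, Il13ra2, was seen almost only in RAW. It encodes a decoy receptor that binds IL-13 with high affinity, and it was singled out after its values had been seen. The RAW libraries had 6 counts at rest and 60 after LPS, or 1.57 and 12.8 CPM, a ratio of 8.18 (3.55 to 23.2, counting error only, no replicate check). The other 6 libraries had 1 count in all, in BMDM at rest. After LPS the RAW level was at least 82.5-fold higher than in BMDM, taking 3 counts over both BMDM libraries as the floor. Per length, Il13ra2 reached 0.525 times Il13ra1 in RAW after LPS, and RAW thus differed from the other cell types in having little Il4ra, resting Il13ra1 at the level of stimulated BMDM, and reads of the decoy.

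Of the ligands, Il13 had no read in any library, and Il4 had 3 counts in 1 resting BMDM library and 2 in resting hMPDM. Among 11 other ligands and receptor chains of the IL-10 family 6 had no read in any library and 1 passed the filter, Il20rb, a chain of the receptors for IL-19, IL-20 and IL-24, which rose by 2.17 in BMDM (adjusted p = 6.4e-11, edgeR). Il19 had 4 and 8 counts in BMDM after LPS, 1 in RAW after LPS and 0 elsewhere. The chains that pair with Il10rb in the receptors of IL-22 and the lambda interferons were at or near 0: Il22ra1 had no read, and Ifnlr1 had at most 3 counts in a library. Il20ra had no read either.

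Of 16 genes for IL-4, IL-13 and partners of the common gamma chain 7 were tested, of which 4 rose and 2 fell in BMDM, where 31.7% of all genes rose and 31.1% fell (median 0.42, against -0.02 over all genes). Il15 and Il15ra, a cytokine that uses the gamma chain and its presenting receptor, rose by 4.13 (adjusted p = 1.47e-30, edgeR) and 3.79 (adjusted p = 3.29e-25). The response of both was smaller in RAW (differences of -3.84 and -2.96). Il7 had 2 counts over the resting BMDM libraries and 25 after LPS, a ratio of 24.2 (6.05 to 211). Crlf2, the TSLP receptor chain, rose by 0.42, a call that ended with scaling by library size alone. Il7r, the IL-7 receptor chain, fell by 0.86 (adjusted p = 9.23e-16), and Il21r, the IL-21 receptor chain, named after its value was seen as the other gene that fell, by 0.66.

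Of 17 tested kinases, STATs and adaptors 14 rose and 2, Irs2 and Pias3, fell in BMDM (median 0.57), against 31.7% higher and 31.1% lower over all genes. With scaling by library size alone 10 rose and 4 fell, with the median of all genes shifted by -0.36 and the share of all genes not given here. The largest rises were those of the feedback inhibitors Socs3 (7.28, adjusted p = 1.64e-35, edgeR), Socs1 (5.49) and Cish (4.56), and of the kinase gene Jak2 (3.05). The other kinase genes named rose by 0.39 (Jak1), 0.45 (Jak3) and 1.49 (Tyk2), Stat3 by 0.66 and Stat6 by 0.18. With scaling by library size alone the calls for Jak1 and Jak3 ended and Stat6 was lower (log2 -0.19). In RAW 8 of the 17 responses were smaller than in BMDM and 0 larger (12.7% and 10% of all genes), among them Socs1 (-6.35), Socs3 (-3.53), Jak2 (-1.90) and Tyk2 (-1.27). With scaling by library size alone 6 were smaller and 1 larger, with the median difference over all genes shifted by 0.27 and their share not given here.

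All 12 genes listed as IL-10 targets in macrophages were tested, and in BMDM 8 rose and 2 fell (median 1.34), against 31.7% and 31.1% of all genes. Library size scaling alone gave 8 that rose and 4 that fell, with the median of all genes shifted by -0.36 and the share of all genes not given here. The list includes Il4ra, and many of its genes are known also as direct targets of LPS. Socs3, the STAT3-induced inhibitor, rose most, followed by Zfp36, an mRNA decay factor (2.76, adjusted p = 1.96e-30, edgeR), the Fc receptor gene Fcgr1 (2.26) and the NF-kB cofactor gene Bcl3 (2.22). The 2 that fell, named after their values were seen, were the haemoglobin scavenger receptor gene Cd163 (log2 -0.97) and Ddit4, an inhibitor of mTORC1 (-0.99). In RAW 7 of the 12 responses were smaller than in BMDM and 1, that of Hmox1, was larger (0.30), against 12.7% smaller and 10% larger over all genes. Fcgr1 differed by -3.10 and Bcl3 by -1.61.

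Of 18 regulators of Il10 transcription and mRNA 12 rose and 4 fell in BMDM (median 0.83), against 31.7% and 31.1% of all genes. Prdm1, which encodes BLIMP1, rose by 3.85 (adjusted p = 2.4e-24, edgeR), the MAP3 kinase gene Map3k8 by 2.82, Zfp36 by 2.76 and Nfkb1 by 2.59. The genes that fell, named after their values were seen, were Bhlhe40, a repressor of Il10 (-2.0), Maf, a factor that activates it (-1.77), Atf1 (-0.30) and Crem (-0.27). Maf stood at 367 and 379 CPM in resting BMDM and at 114 and 106 CPM in the LPS libraries. In hMPDM it was at 701 CPM at rest and 220.4 CPM with LPS. It was lower in RAW than in BMDM at rest (log2 -2.01), where it went from 92.9 to 30.6 CPM. In RAW 9 of the 18 responses were smaller than in BMDM and 1, that of Bhlhe40, was larger (1.95), against 12.7% and 10% of all genes. With scaling by library size alone 6 were smaller and 4 larger, with the median difference over all genes shifted by 0.27 and their share not given here.

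Of 24 genes listed as IL-4 and IL-13 targets in macrophages 19 were tested, of which 7 rose and 5 fell in BMDM (median 0.12), near the 31.7% higher and 31.1% lower over all genes. By library size alone, 6 rose and 11 fell, but this scaling shifts the median of all genes by -0.36. The share of all genes called under it is not given here, so 6 and 11 cannot be set against the shares above. Arg1 and Retnla, the classical markers of alternative activation, were not among those tested: Arg1 had at most 3 counts in a library, and Retnla had none. The chemokine gene Ccl17 was not counted in BMDM at rest and reached 4.24 CPM after LPS, 52.9-fold above a floor of 3 counts over the resting group. Ccl22 rose by 5.27 (adjusted p = 9.65e-19, edgeR), and Socs1 and Cish, given above, are also on this list. The genes that fell, named after their values were seen, were Myc (-2.49), Pparg (-1.51), Klf4 (-0.86), Clec10a (-0.28) and the mannose receptor gene Mrc1 (-0.09). At rest 12 of the 19 were lower in RAW than in BMDM and 1, Ppargc1b, was higher (2.05), against 31.3% lower and 27.1% higher over all genes, with Mrc1 at -4.49. The LPS response was larger in RAW than in BMDM for 4 of the 19 and smaller for 1, against 10% larger and 12.7% smaller over all genes. The larger ones, named after their values were seen, were Myc (5.60), Kdm6b (1.49), Clec7a (0.90) and Tgm2 (0.59), and the smaller one was Socs1 (-6.35).

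**Figure D5:**
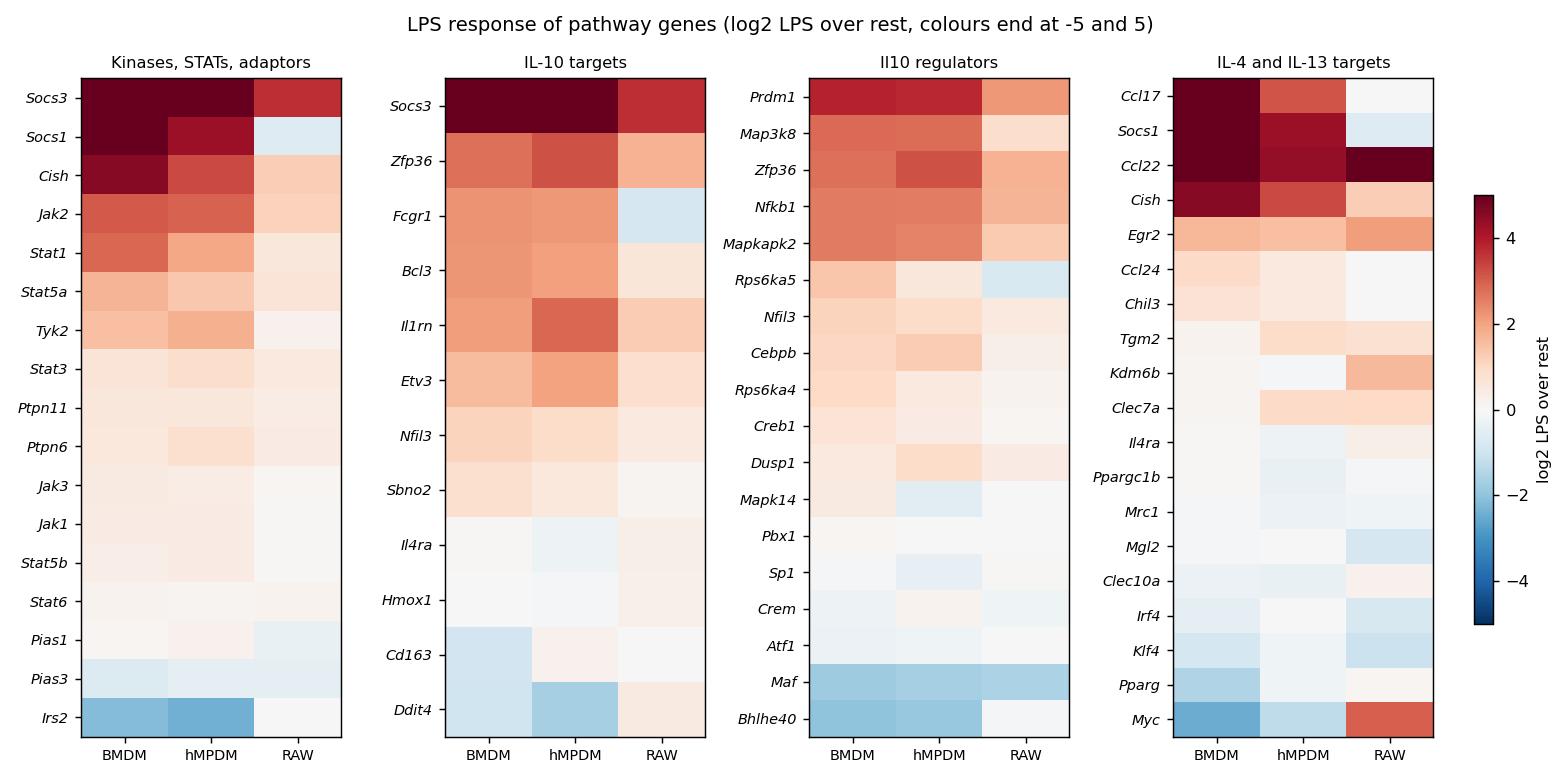
Log2 of LPS over rest (colour, red higher and blue lower, ending at -5 and 5) of the tested genes of 4 lists in BMDM (from the fit) and in hMPDM and RAW (untested ratios with a prior count of 2), ordered by the BMDM value. Socs3 tops the lists that hold it (7.28 in BMDM), Maf is blue in all 3 cell types, and genes not counted in either RAW library are white in the RAW column.

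The genes whose pattern over the 6 group means was most like that of each gene were found by the root mean square difference of centred log2 CPM over 11306 genes. For Il10 it was Ccr3, a chemokine receptor gene (difference 0.162 on the log2 scale, median over all genes 1.30), followed by Dirc2 (0.277) and Slfn9 (0.281). Like Il10, Ccr3 was scarce, at 0.619 CPM in BMDM at rest, 4.26 CPM after LPS and 0.214 CPM in RAW after LPS. Both genes had the same level in resting hMPDM (0.661 CPM) and in each RAW library, where Il10 had 1 count. The small distance between them thus rests on very few reads. Il10ra was most like Gramd1a (0.216), Rin3 (0.216) and Kremen1 (0.220), with a median of 1.09 over all genes. The closest to Il10rb were Ripk1, a kinase of TNF receptor signalling (0.0480), Mon2 (0.0566) and Hectd4 (0.0631), with a median of 0.539. Those closest to Il4ra were Galnt3 (0.147), Pdzk1ip1 (0.172) and Dusp23 (0.182), with a median of 1.69, and each of them was scarce in RAW, at 0.523, 2.09 and 0.785 CPM at rest. Il13ra1 was most like Nr1h3, which encodes the nuclear receptor LXR alpha (0.185), Pttg1 (0.202) and Adgre4 (0.216), with a median of 1.00. Il2rg was most like Psme1, a subunit of the proteasome activator (0.0864), Otud5 (0.0866) and Gm7964 (0.107), with a median of 0.714. These distances describe the 6 groups only and rest on 8 libraries.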

How the data were processed

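The authors deposited whole-number counts for 43346 genes, not normalized, in a featureCounts layout per the file header. Per the submitters' processing notes, cutadapt, STAR, SAMtools, bedtools and featureCounts were used with the mm10 build; their versions and the strand setting were not found. The length of each gene model, used for RPKM, is a column the authors deposited. Of 10 value columns 8 matched a sample by name. The other 2 carry hMPDM in their names but matched no sample, so they were not used. Whether they are further hMPDM libraries is not known from the labels. Symbols came from a reference list of gene names (42462 identifiers matched), and promoter sequences came from RefSeq (GRCm38.p6).

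Counts were fitted in edgeR 4.0.16 (R 4.3.3) by the quasi-likelihood method after filterByExpr and TMM, with 1 coefficient per group over all 8 libraries. This leaves 2 residual degrees of freedom, both from BMDM, and the single hMPDM and RAW libraries are assumed to vary likewise. The additive fit of cell type and LPS leaves 4. The coefficient of variation in the fit by group was 2.27%, well below the fixed value set as an alternative. P-values for the single hMPDM and RAW libraries rest on this small spread between BMDM libraries. Whether hMPDM or RAW cultures vary as little was not tested. P-values were adjusted by Benjamini-Hochberg over 12461 genes and called at 0.05. Each SE was derived from the log2 value and its F statistic (value over root F). Comparisons of 1 library with 1 have no test. Exact 95% intervals and the floor of 3 counts cover counting error only, and not the spread between cultures. Reads are not independent molecules, so the intervals may understate counting error as well. Alternatives were another scaling, other filters, DESeq2 1.42.0, a replicate block, a fixed coefficient of variation, leaving out each BMDM library and correcting or leaving out the hMPDM LPS library (the last added after the data were seen). The fit was also run on simulated data in which all libraries varied alike. That run cannot show whether single hMPDM or RAW libraries vary as little as BMDM libraries.

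Counts of BMDM replicates were further apart than sampling noise (chi-square over degrees of freedom, 1.63 at rest and 1.70 after LPS). Named genes were the 6 genes, in each further list the 4 largest called changes in BMDM, the ligands, the kinases with Stat3 and Stat6, and for each of the 6 genes the 3 most similar patterns. The 6 genes and the lists were chosen with earlier results of these data known. The marker list of B cells is not reported here.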

Additional observations from a re-analysis of the deposited data

Results flagged for a closer look

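For 5 results the LPS response differed between cell types by the edgeR test of the difference itself, each with single libraries on the hMPDM or RAW side. The response of Il13ra1 was smaller in RAW than in BMDM by a log2 difference of -1.33 (adjusted p = 2.79e-06), with 33.0 CPM in resting RAW against 10.8 and 10.6 CPM in resting BMDM. The response of Il10ra was smaller in RAW (-0.81, adjusted p = 0.000378), and so was that of Il2rg (-0.69, adjusted p = 7.17e-05), while the LPS library was the higher one in all 3 cell types for both genes. In hMPDM the response of Il10ra (-0.44, adjusted p = 0.000567) and of Il4ra (-0.34, adjusted p = 0.00124) was smaller than in BMDM. Both hMPDM results lost their call with DESeq2 and with a coefficient of variation of 10%, and the latter also ended the calls for Il10ra and Il2rg in RAW. For Il4ra the hMPDM LPS library was below the resting one (301 against 363 CPM). The change of Il4ra in BMDM was not called (0.07, adjusted p = 0.109), and with scaling by library size alone it was a called fall (log2 -0.29, adjusted p = 2.8e-08).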

How the results depend on the processing

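Calls for the 6 genes kept their direction and side of the threshold under most alternatives (of 578 recomputed log2 values 546 did so, 23 lost a call and 9 turned direction). The number called changed with DESeq2 from 3 to 1 in hMPDM against BMDM at rest, from 4 to 2 after LPS and from 2 to 0 in the difference of their LPS responses. With the coefficient of variation set at 10% these became 1, 0 and 0, and the number in the difference of the RAW and BMDM responses went from 3 to 1. The number at least 2-fold higher in hMPDM went from 4 to 2 with scaling by library size alone. Shares of all genes under these alternatives are not given here, so the losses cannot be called particular to the 6 genes. Values that turned direction were those of genes without a call under the settings reported: with scaling by library size alone Il4ra in BMDM (-0.29) and in the common response (-0.30), Il10ra in hMPDM against BMDM at rest (0.014), Il2rg in RAW against BMDM at rest (0.15) and Il10rb in the RAW minus BMDM response (0.26); with no filter Il10rb in the latter (0.016) and Il4ra in the common response (-0.0031); and without 1 BMDM library Il10ra (range -0.057 to 0.030) and Il10rb (range -0.055 to 0.0048) in those comparisons. The cause was not tested. The BMDM replicate numbers are shared between states, but deviations of same-numbered libraries were not correlated (-0.035, 2 pairs), so the block is not evidence of pairing. With the replicate block 5 genes were called in BMDM, as without it, and the call for Il13ra1 in RAW against BMDM after LPS ended (0.25, adjusted p = 0.12). Precision is limited by 1 or 2 libraries per group, and for Il10 by 1 to 51 counts per library.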
